A study of Mus musculus with 2 samples.

Results

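The HOX genes of the mouse were examined in G1E cells, an immortal erythroid progenitor line that lacks GATA-1. Every probe set whose only gene symbol in the platform annotation was that of a HOX cluster gene was a member. This gave 48 probe sets for 33 genes, of 34945 probe sets for 18193 genes that had a gene symbol of their own on the array. There were 9 genes of cluster A on chromosome 6, 9 of cluster B on chromosome 11, 7 of cluster C on chromosome 15 and 8 of cluster D on chromosome 2. RefSeq lists 39 HOX genes for the mouse, and the other 6 had no probe set of their own.

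Both cultures were GATA-1-null and carried ER-GATA-1(V205G), an estrogen receptor domain joined to GATA-1 with a change that weakens its contact with the cofactor FOG-1, so that estradiol switches the mutant on. One culture was taken before treatment and the other after 24 h with 1 µM estradiol, with 1 array each. The promoter driving the fusion, and whether the line was a single clone, are not given in the sources used here. With 1 array per group there is no replicate check, no standard deviation between cultures and no test, and every difference below is between 2 arrays. Neither a mock culture at 24 h nor cells lacking the fusion were analysed here, so activation of the mutant, estradiol itself and time in culture cannot be told apart.

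HOX genes encode homeodomain transcription factors that set position along the body axis. They lie in clusters in which the order on the chromosome follows the order of expression along the embryo, and genes of the same number in different clusters (paralogs) are related in sequence. In blood, genes of the A, B and C clusters are active in stem and progenitor cells and are mostly shut down as cells mature. HOX proteins bind DNA together with PBX and MEIS proteins, and their genes are kept on by trithorax (MLL) complexes and silenced by Polycomb complexes.

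Sequences are shown to place the measured genes in their clusters. In the RefSeq order of chromosome 15 the cluster reads Hoxc13, Hoxc12, Hoxc11, Hoxc10, Mir196a-2, Hoxc9, Hoxc8, Hoxc6, Hoxc5 and Hoxc4. Mir196a-2 therefore lies between Hoxc10, which stayed below the signal floor, and Hoxc9, which was measured. Members of the miR-196 family also lie in cluster B (Mir196a-1) and cluster A (Mir196b), and miR-196 is known to act on Hoxb8, Hoxc8 and Hoxa7 transcripts. The array values include no probe set for them, so their levels were not analysed here. The mature sequences, from RefSeq on GRCm38.p6, are given with bases 2 to 8, the seed, in capitals; both share the seed AGGUAGU.
mmu-miR-196a-5p (Mir196a-2, chr15:102973365-102973386, + strand): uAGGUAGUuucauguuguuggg
mmu-miR-196b-5p (Mir196b, chr6:52230129-52230150, − strand): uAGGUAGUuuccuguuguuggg

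The promoter table held 24 promoters of 22 HOX genes, of which the only HOXC gene was Hoxc4. The 250 bases before its start are shown beside those of Hoxa9, the leukaemia-linked HOXA gene whose signal differed little between the arrays. Capitals mark a GATA motif, searched on both strands as the letters GATA preceded by A or T and followed by A or G.
Hoxc4 (GRCm38.p6, chr15:103034145-103034394, + strand): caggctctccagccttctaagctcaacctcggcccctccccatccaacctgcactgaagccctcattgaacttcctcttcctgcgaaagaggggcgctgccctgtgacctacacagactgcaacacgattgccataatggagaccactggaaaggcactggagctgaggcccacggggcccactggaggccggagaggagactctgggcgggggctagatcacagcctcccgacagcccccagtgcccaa
Hoxa9 (GRCm38.p6, chr6:52227371-52227620, − strand): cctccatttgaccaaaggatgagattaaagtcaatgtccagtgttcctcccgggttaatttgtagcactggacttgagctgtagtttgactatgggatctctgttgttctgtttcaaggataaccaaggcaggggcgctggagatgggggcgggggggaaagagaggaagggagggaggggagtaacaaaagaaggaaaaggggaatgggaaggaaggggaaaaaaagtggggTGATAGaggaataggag

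The Hoxc4 window held 0 of these motifs and the Hoxa9 window held 1. A motif was found in 6 of the 24 HOX promoters (25%) and in 8718 of 32851 promoters of the whole table (26.5%), so its share was much the same. A match describes letters only and says nothing of binding. HOX promoters were richer in CpG, with a median of 12.5 CpG in 250 bases against 6 over all promoters, and in G and C, with 58.6% against 52.4%. The Hoxc4 window held 8 CpG.

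The values are linear signals, 1 per probe set and array, and a signal of 95.2, the 50th percentile of both arrays, was used as the floor. Each gene is represented by its brightest probe set. Genes reaching the floor in both cultures are termed measured, and the log2 ratio of estradiol over untreated is given for them. Log2 ratios of different probe sets for the same gene had a pooled SD of 0.25, over 12514 probe sets of 4586 genes, and 2 SD was 0.60 for the dimmest tertile of genes, 0.50 for the middle one and 0.40 for the brightest. This SD covers probe noise, not differences between cultures. The signals of different genes come from different probes and are not compared with each other.

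A smaller share of HOX genes than of all genes reached the floor, and the 1 HOX gene at least 2-fold apart was Hoxc8. Of the 33 genes 11 were measured (33.3%), against 10240 of 18193 genes on the array (56.3%). A further 2 reached the floor on 1 array and 20 on neither. Of the 11 measured genes 1 was at least 2-fold lower after estradiol and 0 at least 2-fold higher; 1.1% of all measured genes were at least 2-fold lower and 2.04% at least 2-fold higher. The log2 ratio lay below 0 for 7 measured HOX genes and above 0 for 4, with a median of -0.04 against 0.00 for all measured genes. Among single probe sets 14 of 48 were measured, 10 of them with a ratio below 0. Cluster C accounts for 8 of the 14 and for 7 of these 10 ratios, and counts Hoxc5 3 times and Hoxc6 2 times. The matching share over all probe sets was not computed.

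**Figure D1:**
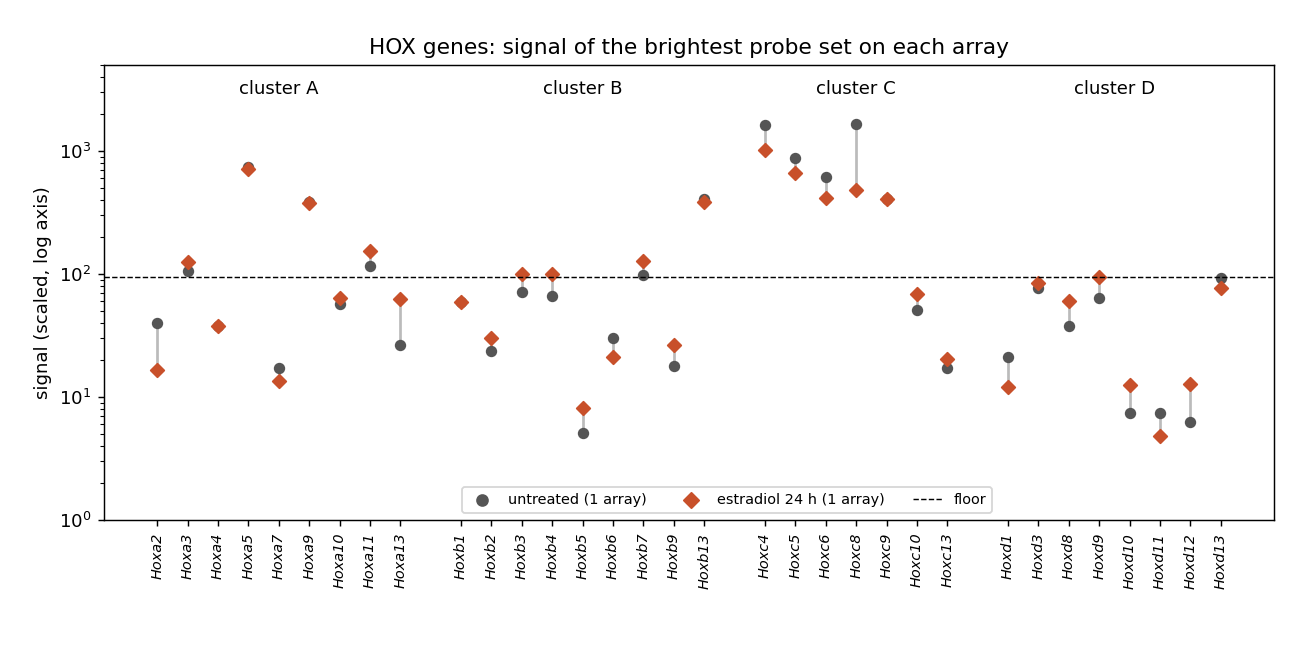
Signal of the brightest probe set of each of the 33 HOX genes on the untreated array (circles) and the estradiol array (diamonds), on a log axis, grouped by cluster; the dashed line is the floor of 95.2. The 8 genes of cluster D lie below the floor on both arrays, and Hoxc8 has the widest gap among the measured genes, from 1649 to 480.3.

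Cluster C held the largest share of measured genes and the lower values. Of its 7 genes 5 were measured (71.4%), and these 5 are neighbours from Hoxc9 to Hoxc4. In 4 of the 5 the log2 ratio was below 0, and the median was -0.58. Hoxc8, which patterns the thoracic skeleton and its motor neurons, gave a signal of 1649 untreated and 480.3 with estradiol. This is a log2 ratio of -1.78, or 3.43-fold lower, and 14 of the 10240 measured genes (0.137%), Hoxc8 among them, had a ratio as low. Hoxc8 has 1 probe set, so no other probe set checks this value. In RNA from a whole culture, fewer cells with a transcript and less of it per cell cannot be told apart.

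Hoxc4, a gene expressed in lymphoid and other blood progenitors, read 1617 untreated and 1014 with estradiol, a log2 ratio of -0.67 (1.60-fold lower). It also has 1 probe set. Hoxc4 and Hoxc8 were the 2 measured HOX genes beyond 2 SD of their tertile of signal, which was 0.50 for both. The share by tertile over all genes was not computed. Within 2 SD pooled over all signals, also 0.50, lay 8 of the 11 measured HOX genes and 8570 of all 10240 measured genes. Lying beyond 2 SD was thus not rare on these arrays. At 1.5-fold Hoxc4 and Hoxc8 were the HOX genes counted lower and 0 were counted higher, against 4.85% and 7.11% of all measured genes. Hoxc6, at a log2 ratio of -0.58, just missed 1.5-fold and passed it under 3 of 5 scalings (-0.70 with a common median, -0.63 with quantile normalization and -0.62 after loess), which gave 3 lower genes. The main scaling and the signals as deposited are both among the 5 but are nearly identical, here and wherever 5 scalings are named.

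The 3 probe sets of Hoxc5, which lies between Hoxc6 and Hoxc4, agreed in direction. The brightest read 883 and 658 (log2 ratio -0.42), another 411 and 297 (-0.47), and the dimmest 318 and 212 (-0.58). Each was lower after estradiol, but the brightest lay inside 2 SD.

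The probe sets of Hoxc6, a gene of thoracic identity, differed in size. The brightest read 617 and 412 (log2 ratio -0.58), and its name ends in x, which marks probes that may also bind other transcripts. The next read 498 and 443, a log2 ratio of -0.17, and the third read 52.7 and 16.8, below the floor on both arrays. The direction was shared by the measured probe sets, while the size depends on the probe set. On the brightest it was inside 2 SD for the dimmest tertile, to which the gene belongs (0.60), but beyond the pooled value of 0.50.

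Hoxc9, the neighbour of Hoxc8 toward Mir196a-2, showed almost no difference, with 408 untreated and 411 with estradiol (log2 ratio 0.01). Its sign turns with the scaling of the arrays, from -0.10 to 0.01 over 5 scalings. The largest and the smallest differences of the cluster were thus found in genes next to each other. Hoxc10 (51.0 and 69.1) and Hoxc13 (17.3 and 20.5), which belong to the posterior end of the cluster, were below the floor on both arrays.

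**Figure D2:**
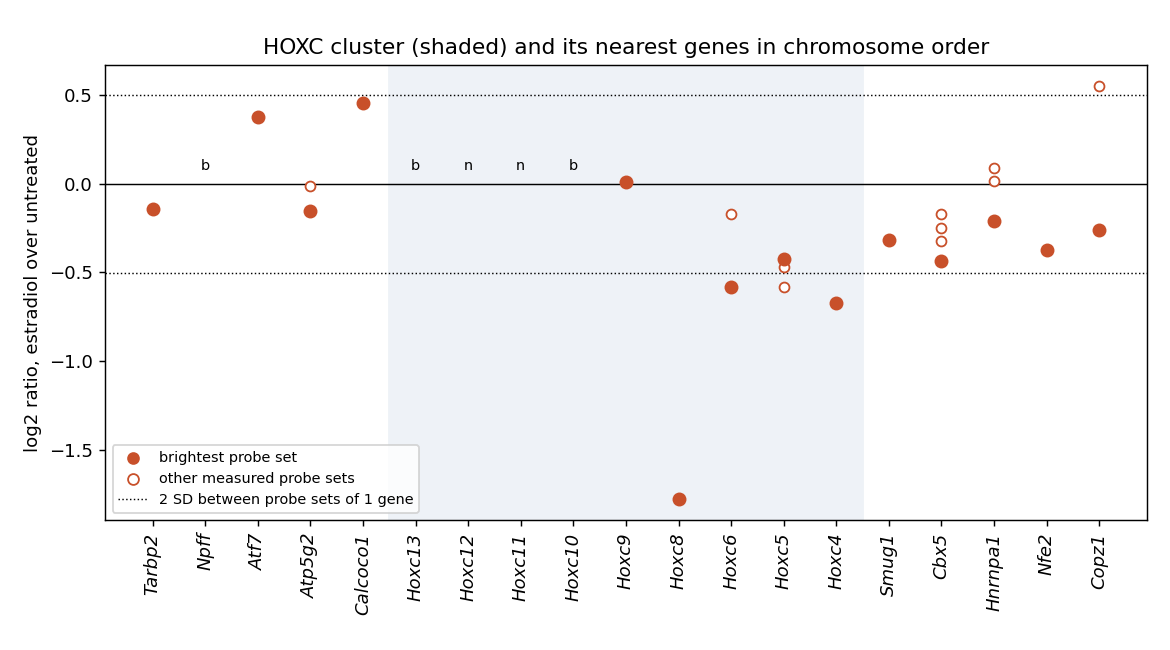
Log2 ratio of estradiol over untreated for every measured probe set of the HOXC genes (shaded) and the 5 nearest genes on each side that have a probe set of their own, in chromosome order; filled circles are the brightest probe set, b marks a gene below the floor and n a gene without a probe set of its own. Hoxc8 lies at -1.78, Hoxc9 beside it at 0.01, and the dotted lines mark 2 SD between probe sets of 1 gene pooled over all signals (0.50), which Hoxc6 at -0.58 passes although it lies inside the 0.60 of dim genes.

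The genes that flank cluster C were compared because neighbours can share a chromosomal domain. Beyond Hoxc4, all 5 nearest genes were measured and had ratios below 0 on their brightest probe set under each of 5 scalings, with a median of -0.31. They were Smug1, a uracil-DNA glycosylase gene (418 and 336, log2 ratio -0.31), Cbx5, which encodes heterochromatin protein HP1 alpha (5327 and 3936, -0.44), Hnrnpa1 (-0.21), Nfe2, an erythroid and megakaryocytic factor gene (5678 and 4379, -0.37), and Copz1 (-0.26). Other probe sets of Hnrnpa1 and Copz1 had ratios above 0, 1 of the 5 for Cbx5 had a bound above 0 (88.4, below the floor, and 134), and on the brightest probe set none of the 5 genes was 1.5-fold apart. Beyond Hoxc13 4 of 5 genes were measured, of which Calcoco1 (log2 ratio 0.45) and Atf7 (0.38) lay above 0 and Atp5g2 (-0.15) and Tarbp2 (-0.14) below. Another Atf7 probe set went the other way (147 and 76.7, below the floor, a bound of -0.63). Over the 40 flanking genes of the 4 clusters 29 were measured, 0 were 2-fold apart, and ratios ran from -0.44 to 0.55 with a median of -0.11. A flank of cluster A, beyond Hoxa13, also ran one way. Its 3 measured genes of 5 lay above 0 under each of 5 scalings, with a median of 0.35. Of all 10240 measured genes 5111 had a ratio below 0.

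Cluster A held 4 measured genes of 9, none of them past 2 SD. Hoxa9, a gene required for normal progenitor numbers and a driver of leukaemia when overexpressed, read 383 and 376 (log2 ratio -0.03), and its other probe set 4.70 and 3.90, below the floor. Hoxa5, which restrains erythroid output when forced in progenitors, read 741 and 719 (-0.04). Its probe sets disagree: that value comes from a probe set whose name ends in x, while the other read 85.0 and 15.6, below the floor on both arrays. Without probe sets of that kind Hoxa5 was not measured.

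The other measured HOXA genes lay just above the floor. Hoxa11, a limb, kidney and uterine gene, read 116 and 155 (log2 ratio 0.42). Hoxa3, a gene of the pharyngeal arches and thymus, read 106 and 124 (0.23) on 1 probe set, and its other 3 probe sets were below the floor, from 37.8 to 74.9 untreated and from 36.6 to 90.8 with estradiol. These ratios above 0 are inside 2 SD for dim genes (0.60), and raising the floor to the 70th percentile left neither gene measured.

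The remaining HOXA genes were below the floor on both arrays. Hoxa7, a progenitor gene often raised with Hoxa9 in leukaemia, read 17.3 and 13.5, and Hoxa10, which acts beside Hoxa9 in progenitors, 57.4 and 63.6. Hoxa2 (39.8 and 16.6), Hoxa4 (37.8 and 38.0) and Hoxa13 (26.5 and 62.6) are known mainly from the hindbrain, the neck and the limb or gut. Signals below the floor have no order here, so no ratio is given, and they do not show that a transcript is absent.

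Cluster B, which includes the progenitor genes Hoxb4 and Hoxb3, held 2 measured genes of 9. Hoxb13, a posterior and prostate gene, read 408 and 383 (log2 ratio -0.09). Hoxb7 read 97.6 and 128 (0.39), barely over the floor. Neither passed 2 SD.

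Hoxb4 and Hoxb3 each reached the floor with estradiol only. Hoxb4, which expands blood stem cells when overexpressed, read 66.8 untreated and 99.7 with estradiol, a lower bound of 1.05-fold. Its other probe set read 61.7 and 47.6. Hoxb3 read 71.1 and 99.2, a bound of 1.04-fold, and 23.0 and 11.7 on its other probe set. Both bounds are far from 2-fold and sit at the edge of the floor; of 1189 genes with a bound, 6.22% had one of at least 2-fold. The other HOXB genes were below the floor on both arrays: Hoxb1 (59.5 and 58.9), Hoxb2 (23.8 and 29.9), Hoxb5 (5.10 and 8.10) and Hoxb9 (17.9 and 26.3). Hoxb6, also below it, read 21.0 with estradiol.

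Cluster D, whose genes pattern limbs, the trunk and the genital tubercle, had no measured gene among 8. Hoxd13 read 92.4 untreated and 77.0 with estradiol, Hoxd9 64.1 and 94.1, and Hoxd3 76.7 and 85.1. Signals over the 8 genes ran from 6.30 to 92.4 untreated and up to 94.1 with estradiol. The 3 probe sets shared by HOX genes, 2 for Hoxd4 with Hoxd3 and 1 for Hoxb8 with Hoxb7, were not members and read from 11.0 to 52.6 and from 6.60 to 58.6.

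Sorted by paralog group, more genes in the middle of the clusters than at their ends were measured, but this rests on cluster C. Of 12 genes of groups 4 to 8, 6 were measured (50%), with 5 ratios below 0 and a median of -0.50. Outside cluster C the measured ones were Hoxa5 and Hoxb7, so these values largely repeat those of Hoxc4, Hoxc5, Hoxc6 and Hoxc8. No gene of groups 1 to 3 on the array belongs to cluster C. Of 14 genes of groups 9 to 13, 4 were measured, with ratios from -0.09 to 0.42. Of 7 genes of groups 1 to 3 only Hoxa3 was measured. The paralogs of Hoxc8 on the array, Hoxd8 (37.7 and 60.8) and, with a shared probe set only, Hoxb8, were below the floor, so the Hoxc8 difference could be compared with no paralog of the same number. In group 9 the measured paralogs Hoxa9 (-0.03) and Hoxc9 (0.01) were alike, and in group 4 Hoxc4 alone was measured.

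**Figure D3:**
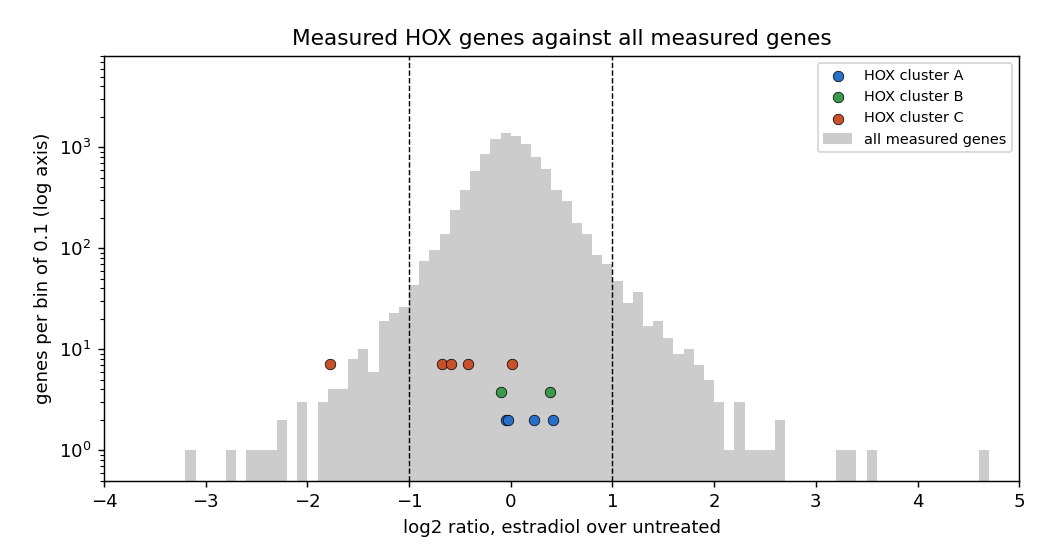
Number of measured genes per bin of 0.1 in log2 ratio (grey bars, log axis) with the 11 measured HOX genes marked by cluster at arbitrary heights; dashed lines mark 2-fold. The HOXA and HOXB genes lie from -0.09 to 0.42, and Hoxc8 is the only HOX gene outside the dashed lines.

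Overlap between genes limits some assignments. In RefSeq the spans of 10 HOX genes overlap that of another HOX gene (Hoxa3 with Hoxa4, Hoxa5 and Hoxa6, Hoxb3 with Hoxb4, Hoxd3 with Hoxd4, and Hoxd10 with Hoxd11), and of these Hoxa3 and Hoxa5 were measured. None of the HOXC spans overlap. Among transcripts of the clusters that are not HOX genes, 5 of 17 listed had a probe set of their own. Evx2, the homeobox gene at the end of cluster D, read 206 and 291 (log2 ratio 0.50), and Evx1 and the antisense transcripts Hoxa11os, Hoxb5os and Hoxd3os1 were below the floor.

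The partners with which HOX proteins bind DNA were listed as the TALE homeodomain genes together with Pbxip1, which encodes a PBX-binding protein. Of 11 genes with a probe set 7 were measured and 0 were at least 2-fold apart. Pbx2, a PBX partner, read 1865 and 979.8 (log2 ratio -0.93), with -0.93 and -0.74 on its other probe sets. Tgif1, a TALE repressor, read 284 and 143 (-0.99) on its single probe set. Both were close to 2-fold lower and passed it when the arrays were given a common median (-1.04 and -1.10). Pbx3 (393 and 398, log2 ratio 0.02) and Meis1, the partner of Hoxa9 in leukaemia (142 and 145, 0.03, and -0.15 on its next probe set), differed little in this scaling. The list depends on the scaling and on the probe set picked: its median was 0.02, with 4 ratios above 0 and 3 below. Under 3 of 5 scalings (common median, quantile and loess) it lay from -0.27 to -0.24 with 1 above and 6 below. Both Pbx3 and Meis1 turned below 0 there, Meis1 to as low as -0.28. The brightest probe set was picked anew under each scaling, and 2 of Meis1 were nearly tied (142 and 145, and 151 and 136). Under those 3 scalings Meis1 took its value from the latter, so its shift and that of the list median mix scaling with a change of probe set.

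Genes that keep HOX genes active went both ways. Of 21 listed trithorax, MLL and CDX genes 18 were measured, 0 were at least 2-fold apart, and the median log2 ratio was -0.07. Beyond the pooled 2 SD of 0.50 lay 4 genes, Aff1 and Kdm6b above 0 and Psip1 and Wdr5 below. Within it lay 14 of the 18, against 8570 of all 10240 measured genes. Aff1, which encodes a subunit of the super elongation complex, read 599 and 929 (log2 ratio 0.63), with 0.83 and 1.28 on its other probe sets, the last past 2-fold. Kdm6b, a histone demethylase gene, read 1452 and 2069.9 (0.51, with 0.42 and 0.52 on the others), and Wdr5, a core MLL complex gene, 1998 and 1408 (-0.50, and -0.17 on its other probe set). Kmt2a, which encodes MLL1, read 676 and 749 (log2 ratio 0.15, and 0.16 on its other probe set). Men1, encoding menin, which holds MLL1 at HOX genes, read 1122 and 884 (-0.34, and -0.43 on another), and Psip1, encoding the tether LEDGF, 3586 and 2416 (-0.57, with -0.56 and -0.42 on the others). The histone methyltransferase gene Dot1l read 1048 and 1174 (0.16). The values of Cdx1, Cdx2 and Cdx4, activators of HOX genes in the embryo, were below the floor on both arrays.

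Among Polycomb genes 24 of 26 were measured, 1 was at least 2-fold higher, 0 were at least 2-fold lower, and the median was 0.02. The higher one was Pcgf3, a subunit of a variant repressive complex, with 504 and 1336 (log2 ratio 1.41, 2.65-fold higher). Another Pcgf3 probe set read 73.7, below the floor, and 194, a bound of 1.03 on the log2 scale. Pcgf3 and Cbx6 were the 2 genes beyond the pooled 2 SD of 0.50, and 22 of the 24 lay within it. Cbx6 read 1014 and 661 (log2 ratio -0.62, and -0.32 on its other probe set). Eed, a core subunit gene, read 4044 and 3024 (-0.42), inside the pooled 2 SD but beyond that for the brightest tertile (0.40). Of the other core genes Ezh2 read 4955 and 4965 (0.00), Suz12 3806 and 4755 (0.32, from -0.07 to 0.55 over its other measured probe sets) and Bmi1 6301 and 5822 (-0.11).

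Genes reported as HOXA9 and MEIS1 targets in leukaemia went both ways. Of 11 genes 8 were measured and 0 were at least 2-fold apart, with a median of -0.06. Flt3, a progenitor cytokine receptor gene, read 266 and 134 (log2 ratio -0.99) and passed 2-fold with a common median (-1.11). Etv6, an ETS factor gene, lay at -0.64 and at -0.63 on its other probe set, the erythroid factor gene Lmo2 at 0.70, the kinase gene Pim1 at 0.37 and Myb at -0.17. Runx1 lay at -0.17, but its other measured probe sets ran from -0.31 to 0.47. Another Runx1 probe set read 76.3, below the floor, and 252, a bound of 1.40. Erg reached the floor untreated only (153 and 51.1, a bound of -0.68), and its other probe set was below the floor. Id2 and Cd34 were below the floor.

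**Figure D4:**
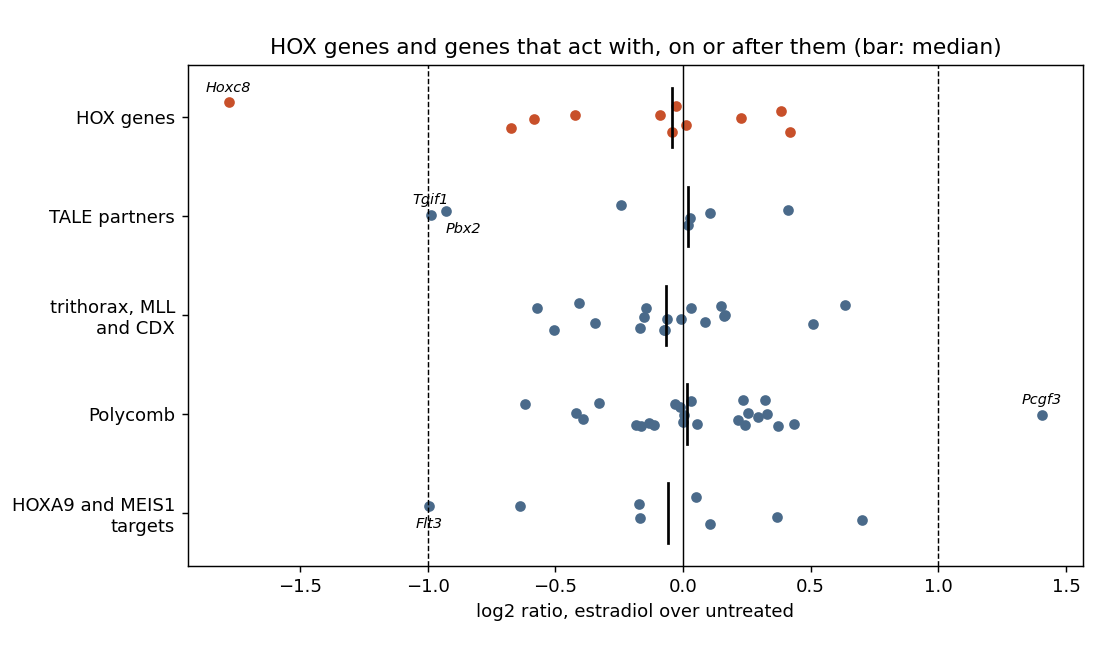
Log2 ratio of each measured gene in the HOX set (11 genes), TALE partners (7), trithorax, MLL and CDX genes (18), Polycomb genes (24) and reported HOXA9 and MEIS1 targets (8); each point is 1 gene, vertical bars are medians, dashed lines mark 2-fold, and vertical scatter is arbitrary. Hoxc8 at -1.78 and Pcgf3 at 1.41 lie outside the dashed lines.

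Markers of the line and of other cells were read in the same way. All 7 erythroid progenitor markers with a probe set (Gata2, Kit, Epor, Klf1, Tal1, Lmo2 and Tfrc) were measured. They went both ways, with 3 log2 ratios above 0 and 4 below, from -0.56 for Tal1 to 0.70 for Lmo2. Beyond the pooled 2 SD lay 3 of them, Tal1, Lmo2 and Klf1 (0.62). Of the fibroblast and stroma markers, whose cells also express HOXC genes, 2 of 8 were measured, Col1a2 (191 and 280.1, log2 ratio 0.55) and Pdgfra (165 and 138, -0.26). Each was measured on only 1 of its 3 probe sets, and the others were below the floor on both arrays. Col1a1, Col3a1, Pdgfrb, Dcn, Lum and Thy1 were also below the floor on both arrays. Of 4 lymphoid markers 0 were measured on both arrays, and Il7r reached the floor with estradiol only (62.8 and 186, a bound of 0.97). Its other probe set was below the floor. Of 4 megakaryocyte markers 3 were measured (Itga2b, Pf4 and Gp1bb), with log2 ratios from 0.15 to 0.18. Of 5 neutrophil and monocyte markers 1 was measured, Csf1r (321 and 373), and Mpo reached the floor with estradiol only (85.0 and 137). Of 7 mast cell markers 5 were measured, with Cpa3, Gzmb and Ms4a2 at least 2-fold lower and Tpsab1 at least 2-fold higher. Mcpt2, the fifth, lay at 0.52. Fcer1a reached the floor untreated only (144 and 47.3, a bound of -0.60) and Hdc with estradiol only (3.80 and 152, a bound of 0.67). The part of these markers in the Hoxc8 value was not tested. The Gata1 probe set read 1264 and 1191, but it may or may not detect the fusion, so it is no check of the labels.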

How the data were processed

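Total RNA of 2 G1E cultures was hybridised to 1 short-oligonucleotide array each. The authors deposited linear signal intensities for 45101 probe sets, which per the submitters' processing notes came from GCOS (version not given in the sources used here). Their 2% trimmed mean was 500.0 on both arrays. Signals were rescaled to 1 trimmed mean over probe sets that are not controls (factors 0.999941 and 1.00006). Symbols come from GEO's platform annotation: 34945 probe sets had 1 symbol, 932 several and 9160 none. All 48 HOX probe sets kept their symbol in RefSeq (GRCm38.p6). The HOX genes, related lists, floor and naming rule (all HOX genes; list members 2-fold apart or with a 2-fold bound; 8 preset regulators; further members as examples by size) were chosen with earlier results of these data known. Flanking genes are the 5 nearest on each side in RefSeq. Alternatives covered scaling, floor, probe set and threshold. The steps were tested on simulated data. Scripts ran under Python 3.11.15 (matplotlib 3.10.9, statsmodels 0.14.6, pandas 2.3.3, numpy 2.4.6). The number of arrays limits the precision.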

Additional observations from a re-analysis of the deposited data

How the results depend on the processing

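Hoxc8 was the only HOX gene at least 2-fold lower, and 0 were 2-fold higher, under all 10 alternatives of scaling, floor and probe set, with a log2 ratio from -1.89 to -1.75. Most of these could not move its ratio. Hoxc8 has 1 probe set with signals above each floor, so shifting the floor or choosing probe sets left -1.78 unchanged. The signals as deposited gave the same rounded value, which leaves the other scalings and the setting with 16 added as checks. At 1.5-fold 2 genes were lower and 0 higher, and 3 were lower with a common median, quantile normalization or loess, where Hoxc6 passed it. The number of measured HOX genes depends on the floor: 21 with the 30th percentile, 8 with the 70th and 33 with none and 16 added to each signal. Cluster D then had a median of 0.35 with the 30th percentile and 0.20 with no floor. The median of all measured HOX genes ran from -0.26 to 0.12 and changes sign, as do those of cluster A (-0.03 to 0.23) and cluster B (-0.09 to 0.39), while that of cluster C stayed below 0 (-0.70 to -0.42). Of 96 values of the other 10 genes 95 moved by less than 1 SD between probe sets. Many could not move, because floor and probe set choices leave a gene with a single measured probe set unchanged while it stays measured. Hoxc6 moved to -0.17 without x and s probe sets, an alternative chosen after seeing the data. A common median shifts all measured genes by -0.11. No paired analysis was possible because each group held 1 array. Signals near the floor limit what can be said of clusters A, B and D.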
